A study of Saccharomyces cerevisiae with 18 samples.

Results

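The genes described here encode the core machinery that copies chromosomal DNA in the budding yeast Saccharomyces cerevisiae. A list of 44 gene names was drawn up by function, from the origin recognition complex to the ligase that seals the lagging strand. No measured value enters the rule, but the list was proposed with earlier results of these data known. The names were matched to the gene names and systematic names of the deposited tables, and all 44 were found among the 6713 loci with counts. All 44 passed the filter on low counts, which kept 5766 loci.

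RNA-Seq libraries came from total RNA of the laboratory strain S96 (MATa), in which the coding region of YRR1, a gene for a zinc cluster transcription factor of drug resistance, was replaced by a hygromycin-resistance gene. Every strain, the comparison strains included, carried this deletion and a plasmid with 1 allele of YRR1 under its own promoter, kept by the drug G418: the S96 allele (Yrr1S), the allele of the strain YJM789 (Yrr1Y), or the S96 allele with the change I775E, which puts glutamate in place of isoleucine and was made to mimic phosphorylation (Yrr1IE). Cells grew in YPD (rich glucose medium) for 2.5 h, in YPD with 0.25 µg/ml 4NQO (4-nitroquinoline 1-oxide, a mutagen that forms bulky DNA adducts) for 2.5 h, or in YPglycerol with 3% glycerol, which has to be respired, for 10 h. There were 9 conditions with 2 libraries each, 18 libraries in all, from 2 replicate cultures per strain. The subcultures with and without 4NQO came from the same cultures, but no label pairs their libraries. Carbon source and growth time cannot be told apart in the glycerol comparison. Whether a strain stands for more than 1 transformant is not given in the sources used here.

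Total counts per library ran from 1475372 to 2826771, and the 44 genes took 0.126 to 0.251% of them. YRR1, carried on the plasmid, had 89 to 199 counts in the Yrr1IE libraries, 138 to 425 in those of Yrr1Y and 235 to 570 in those of Yrr1S. In each medium the Yrr1IE libraries had the fewest. All 6 markers of MATa cells were counted in every library (61 to 4461 counts each), and of the 4 markers of the other mating type MF(ALPHA)1 had 0 to 11 counts, MF(ALPHA)2 had 4 to 22, STE3 had 2 to 74 and SAG1 had 94 to 199. The 6 Yrr1IE libraries held 0 to 2 counts of SNF1, the kinase gene needed for growth without glucose, against 179 to 297 in each of the other 12. The labels do not describe a change at SNF1, so the Yrr1IE allele, its lower YRR1 counts and the missing SNF1 transcript cannot be told apart. For the averages over alleles of the 44 genes, the counts, the medians and the calls lost or gained are given below also without the Yrr1IE libraries. Those values are the average of Yrr1S and Yrr1Y, taken within the fit of all 18 libraries.

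Replication begins at origins bound by the origin recognition complex (Orc1 to Orc6), on which Cdc6 helps to load the ring-shaped helicase made of the Mcm2 to Mcm7 proteins. The kinase Cdc7 with its partner Dbf4, together with Sld3, Dpb11, Mcm10, Cdc45 and the GINS proteins (Psf1, Psf2, Psf3, Sld5), turns the loaded ring into an active helicase. DNA polymerase alpha with primase starts each strand, polymerase epsilon extends the leading strand and polymerase delta the lagging strand, held to DNA by the clamp PCNA (POL30), which replication factor C loads. Replication protein A (RPA) coats single-stranded DNA, and Rad27 and the ligase Cdc9 finish Okazaki fragments. Many of these genes are transcribed in late G1 through MBF, a factor of Mbp1 and Swi6 that binds the MCB element (letters ACGCGT), and the RPA proteins and the ribonucleotide reductase genes are known from work on the DNA damage checkpoint.

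The sequence before the start codon was therefore read for every gene. ACGCGT, which reads the same on both strands, was searched in the 300 bases before the start codon of 5995 loci whose coordinates in the deposited table are those of the R64 assembly (RefSeq). It was present for 17 of the 44 replication genes (38.6%), of which 6 had 2 matches and 11 had 1, beside 209 of all 5995 loci (3.49%). Of the 29 other replication genes on a list drawn up by function, such as those for polymerase delta subunits, checkpoint mediators and chromatin assembly, 16 held it. By complex, it was found before no ORC gene, 1 of 7 helicase and loading genes (CDC6), 1 of 2 kinase genes (DBF4), 3 of 9 helicase activation genes (CDC45 with 2 matches, PSF3, CTF4), 3 of 4 polymerase alpha-primase genes (POL1 and POL12 with 2 each, PRI2), 2 of 4 polymerase epsilon genes (POL2, DPB2), POL3, 2 of 6 clamp and loader genes (POL30, RFC4), 2 of 3 RPA genes (RFA1 and RFA2 with 2 each) and both Okazaki genes (RAD27 with 2 matches, CDC9). The motif CACGAAA (SCB, the related element of the factor SBF), searched on both strands, can share no more than 1 end base with ACGCGT and was found before 4 of the 44 genes, ORC6, MCM7, SLD5 and RFC1, and before 270 of all loci (4.5%). A match describes letters in a window and is no evidence of binding.

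A stretch of 150 bases that begins 250 bases before the start codon is shown for 7 genes that the results below turn on, 5' to 3' along the gene's strand, with ACGCGT in capitals. They come from the R64 assembly (RefSeq): RFA1 from chrI:158720-158869 (minus strand), RFA2 from chrXIV:48037-48186 (plus), RFA3 from chrX:96630-96779 (minus), CDC45 from chrXII:346042-346191 (minus), POL1 from chrXIV:429837-429986 (plus), POL12 from chrII:153711-153860 (minus) and POL30 from chrII:425867-426016 (minus). RFA3 is the RPA gene with no match in its 300 bases.
RFA1: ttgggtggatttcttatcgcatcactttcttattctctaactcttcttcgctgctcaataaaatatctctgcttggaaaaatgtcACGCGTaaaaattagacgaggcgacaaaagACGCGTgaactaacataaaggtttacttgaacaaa
RFA2: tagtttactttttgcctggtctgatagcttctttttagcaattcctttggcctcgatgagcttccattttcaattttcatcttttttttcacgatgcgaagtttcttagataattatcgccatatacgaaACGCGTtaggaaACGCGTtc
RFA3: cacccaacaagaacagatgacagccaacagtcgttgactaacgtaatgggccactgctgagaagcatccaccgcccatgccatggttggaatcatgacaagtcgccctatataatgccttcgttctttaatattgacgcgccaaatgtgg
CDC45: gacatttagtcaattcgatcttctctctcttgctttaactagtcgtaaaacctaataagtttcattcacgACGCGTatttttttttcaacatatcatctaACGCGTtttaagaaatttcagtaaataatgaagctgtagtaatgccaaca
POL1: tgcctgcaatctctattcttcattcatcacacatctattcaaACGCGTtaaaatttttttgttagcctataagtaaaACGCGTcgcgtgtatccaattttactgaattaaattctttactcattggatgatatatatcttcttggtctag
POL12: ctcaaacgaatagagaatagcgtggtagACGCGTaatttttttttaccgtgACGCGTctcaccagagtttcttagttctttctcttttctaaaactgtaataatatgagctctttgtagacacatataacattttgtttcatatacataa
POL30: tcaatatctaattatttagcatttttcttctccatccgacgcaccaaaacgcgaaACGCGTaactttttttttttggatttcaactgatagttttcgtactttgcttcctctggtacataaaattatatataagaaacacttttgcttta
In RFA1 the first bases of the matches lay 165 and 135 bases before the start codon, in RFA2 120 and 108, in CDC45 180 and 150, in POL1 208 and 173, and in POL12 222 and 199, while POL30 had 1 match at 195. A few further genes with 1 match that were higher in 4NQO are shown by 30 bases around it, DPB2 from chrXVI:888828-888857 (plus), PRI2 from chrXI:353316-353345 (plus) and CDC9 from chrIV:167362-167391 (minus).
DPB2: aaaagtgatgtgACGCGTtatttttcgcgt
PRI2: tgatttgaaattACGCGTcgcggggaatcg
CDC9: cttaacgcgaaaACGCGTgaaagtgaaatt

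Levels of different genes were compared per length, as FPKM (counts per kilobase of exon and per 1000000 counts of the library, values of the deposited table). In YPD the median of the 44 genes' medians was 22.8 FPKM, close to the 25.1 FPKM of all loci. The RPA subunits RFA3 (median 134.6 FPKM, lowest to highest library 103.5 to 165.7) and RFA2 (112.4, 90.4 to 135.1) stood above all others, whereas RFA1, the gene of the large subunit, had 35.1 FPKM (28.1 to 46.3). The ranges of RFA3 and RFA2 overlapped, so their order is not resolved, and neither overlapped that of RFA1. At the bottom was MCM10 with 4.0 FPKM (2.2 to 5.6), below SLD3 with 8.25 (5.0 to 12.9) and CDC45 with 8.45 (4.1 to 9.4), and these 3 ranges overlapped.

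Genes of 1 complex were not at 1 level. Within the polymerase epsilon genes DPB4, a histone-fold subunit, had 57.5 FPKM (38.4 to 67.3) and its histone-fold partner DPB3 9.4 (6.4 to 11.6), a ratio of 6.12 with no overlap, while the catalytic subunit POL2 had 13.15 (highest library 14.6). Within the Mcm2 to Mcm7 genes MCM3 (44.95 FPKM), MCM7 (43.65) and MCM4 (41.15) lay above MCM5 (24.55), MCM6 (24.5) and MCM2 (22.2), and no library of the upper 3 fell to the highest library of the lower 3 (28.6). The clamp loader genes RFC2, RFC3, RFC4 and RFC5 had medians of 32.45 to 41.75 FPKM with overlapping ranges, and those of the ORC genes ran from 9.7 (ORC6) to 35.8 (ORC5). DPB3 shares 323 of its bases with the opposite-strand locus YBR277C and POL30 584 bases with YBR089W, and the libraries were unstranded, so that the level of these genes is uncertain.

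**Figure D1:**
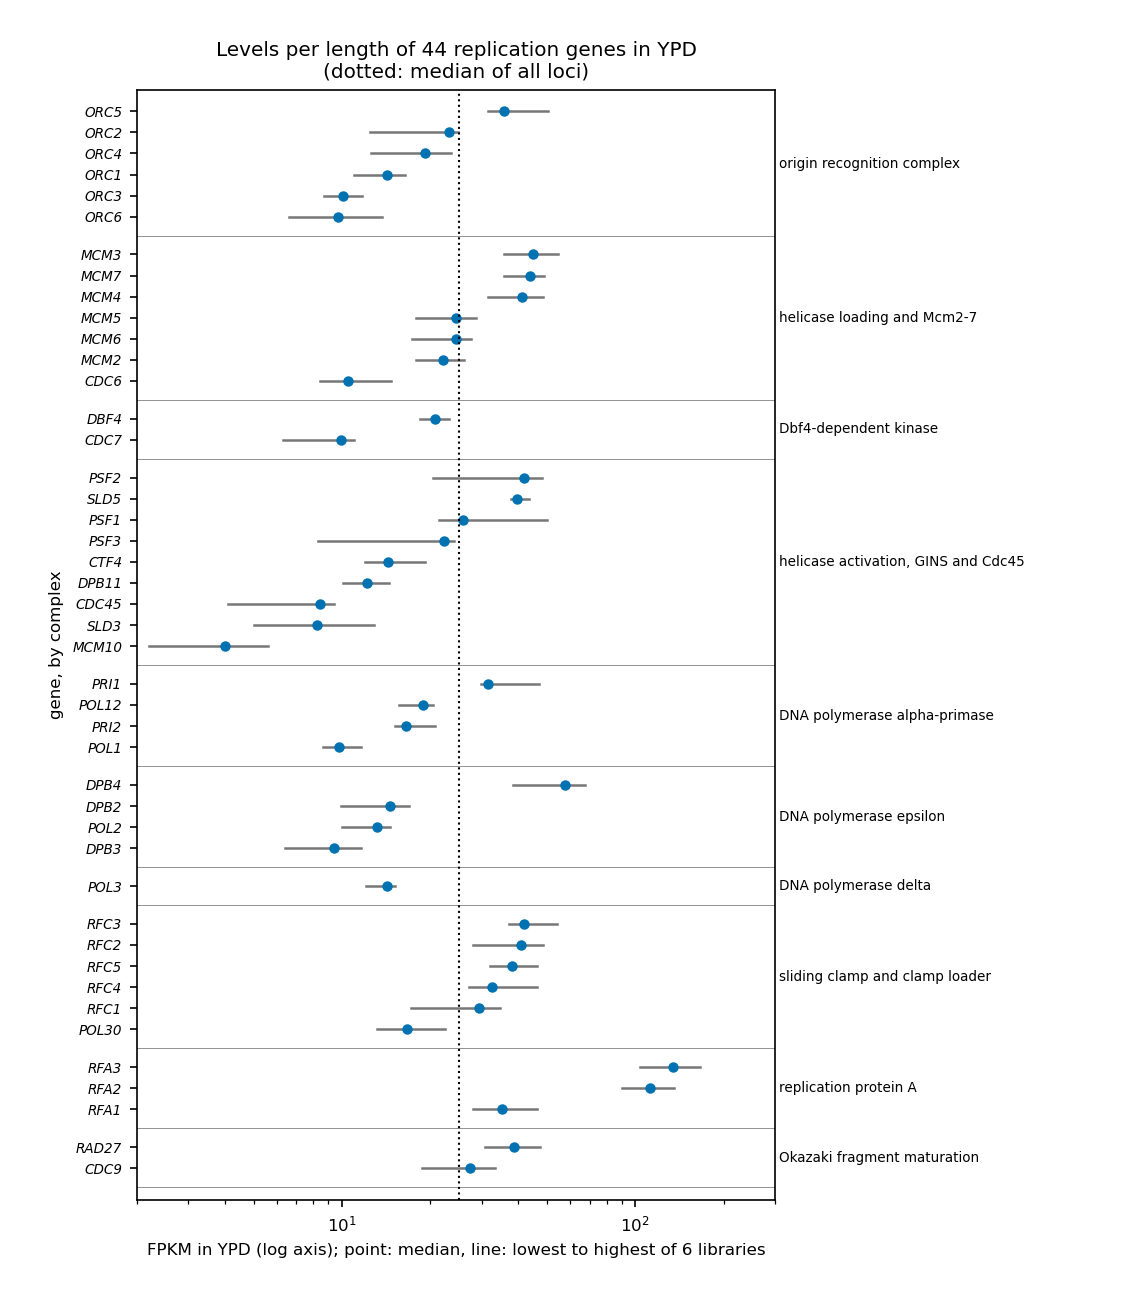
FPKM in YPD on a log axis for the 44 replication genes, by complex. Points are medians and lines run from the lowest to the highest of 6 libraries, and the dotted line is the median of all loci (25.1 FPKM). RFA3 and RFA2 lie above all other genes and MCM10 lies lowest at 4.0 FPKM.

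The first comparison asked how the mutagen 4NQO changed these genes. The 3 RPA genes, CDC45, POL1, POL12, PRI2, DPB2, CDC7, ORC5, CDC9 and RFC3 were higher in 4NQO, whereas MCM2, MCM3, MCM4 and DPB4 were lower. With the 3 alleles averaged, 12 of the 44 genes were called higher (background 23.1% of the 5766 loci tested) and 4 lower (background 21.1%) in edgeR's quasi-likelihood test with Benjamini-Hochberg adjustment over all loci (called at an adjusted p under 0.05). The median log2 fold change was 0.16 for the 44 genes and 0.03 for all loci. The share called higher was near that of all loci. The share called lower was below its background, and so was that called either way, 16 of 44 (background 44.2%). When libraries were scaled to total counts in place of TMM, which raised the median of all loci from 0.03 to 0.19, 18 of the genes were called higher and 0 lower, and with DESeq2 size factors 11 were higher and 6 lower, so the 4 falls are relative to the scaling. No share of all loci is given here for those scalings or for the average that follows. Without the Yrr1IE libraries 10 were higher and 4 lower, with a median of 0.08. MCM2 (-0.36, adjusted p = 0.0941), MCM3 (-0.26, 0.0593), POL1 (0.33, 0.0999), RFC3 (0.22, 0.225) and CDC9 (0.14, 0.397) were then not called, and ORC6 (0.72, adjusted p = 0.0277), ORC1 (-0.44, 0.0354) and RFC1 (-0.37, 0.0283) were. The 3 RPA genes (0.73, 0.67 and 0.60 for RFA1, RFA2 and RFA3), CDC45 (0.95) and DPB2 (0.65) kept their calls. So did CDC7 (0.77), PRI2 (0.48), POL12 (0.44) and ORC5 (0.36), and, as lower, DPB4 (-0.53) and MCM4 (-0.45).

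RFA1, which encodes the large RPA subunit (chromosome I, 156754 to 158619, minus strand), had 69.8 and 78.2 CPM (counts per 1000000 of the TMM-scaled library total) with Yrr1S in YPD and 134 and 137 in 4NQO. With Yrr1Y it had 56.2 and 91.1 CPM in YPD and 97.0 and 125 in 4NQO, and with Yrr1IE 58.4 and 67.7 CPM in YPD and 124 and 137 in 4NQO. Every 4NQO library lay above every YPD library, a separation that was not counted over all loci, for this gene or those below. The log2 fold change was 0.83 ± 0.11 (SE), a 1.78-fold rise, with an adjusted p of 2.25e-07, and by allele it was 0.87 ± 0.18 with Yrr1S, 0.59 ± 0.19 with Yrr1Y and 1.04 ± 0.19 with Yrr1IE, each called (adjusted p = 0.000447, 0.0263 and 0.000123).

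RFA2, the middle subunit (chromosome XIV, 48287 to 49216, with an intron), had 100.2 and 83.0 CPM in YPD with Yrr1S, 91.6 and 117 with Yrr1Y, and 106.5 and 93.8 with Yrr1IE. In 4NQO it had 163 and 149.9 CPM with Yrr1S, 162 and 147.5 with Yrr1Y, and 165 and 168 with Yrr1IE. The 6 libraries of each medium again did not overlap, and the spread within 4NQO was small. The rise was 1.62-fold (log2 0.69 ± 0.10, adjusted p = 1.62e-06), with log2 values by allele of 0.77 ± 0.17, 0.57 ± 0.18 and 0.73 ± 0.18 for Yrr1S, Yrr1Y and Yrr1IE, each called (adjusted p = 0.000893, 0.0209 and 0.00222). RFA1 and RFA2 were the only 2 of the 44 genes called higher in 4NQO with each allele, out of 10 called higher with at least 1. Of all loci 5.20% were called higher with each allele and 22.4% with at least 1. By allele 6 of the 44 genes were called with Yrr1S (background 31.2%), 5 of them higher (15.9%), 5 with Yrr1Y (background 20.2%), 4 of them higher (10.3%), and 7 with Yrr1IE (background 25.9%), all higher (12.9%), and with any 1 library left out 2 to 4 were called with each allele.

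These calls by allele each rest on 2 libraries a condition. For Yrr1Y, RFA1 had a log2 value of 0.27 (adjusted p = 0.465) without the first YPD library (56.2 CPM) and of 0.38 (adjusted p = 0.292) without the second 4NQO library, and RFA2 had 0.38 (adjusted p = 0.277) and 0.48 (adjusted p = 0.159) without the first library of either medium. RFA2 also lost its call with Yrr1S without the second YPD library (adjusted p = 0.0547) and with Yrr1IE without the second YPD library (adjusted p = 0.0642). DESeq2 gave RFA1 with Yrr1Y an adjusted p of 0.0514. Averaged over alleles, both kept the call whichever library was left out.

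RFA3, the small subunit (chromosome X, 96161 to 96529, minus strand), ran from 42.7 to 64.5 CPM in YPD (median 53.3, n = 6) and from 68.7 to 89.6 in 4NQO (median 77.1, n = 6), also without overlap. Its log2 fold change was 0.53 ± 0.12 (adjusted p = 0.000647), and by allele it was called with Yrr1S alone (0.66 ± 0.21, adjusted p = 0.0187), a call lost when any 1 of the 4 libraries was left out. Summed over the 3 genes, RPA took 199 to 273 CPM in YPD and 349 to 384 in 4NQO. None of the 3 differed between alleles in the response to 4NQO by the test of that difference.

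CDC45, whose protein joins the Mcm ring and GINS into the active helicase (chromosome XII, 343989 to 345941, minus strand), had the largest rise of the 44. It had 17.9 and 18.2 CPM in YPD with Yrr1S, 17.97 and 8.48 with Yrr1Y, and 18.7 and 15.8 with Yrr1IE. In 4NQO it had 26.8 and 28.9 CPM with Yrr1S, 40.8 and 23.2 with Yrr1Y, and 33.8 and 32.0 with Yrr1IE. All 6 libraries with 4NQO lay above all 6 without, and the rise was 1.92-fold (log2 0.94 ± 0.19, adjusted p = 0.000127). By allele it was called with Yrr1Y (1.27 ± 0.34, adjusted p = 0.00725) and Yrr1IE (0.93 ± 0.32, adjusted p = 0.0298), and had a value of 0.63 ± 0.31 with Yrr1S. Both calls by allele were lost when some 1 library was left out (adjusted p up to 0.21 and 0.213), and the average was not. The other 8 helicase activation genes were not called, with values from -0.17 to 0.51.

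In polymerase alpha-primase, POL1 (catalytic subunit), POL12 (regulatory subunit) and PRI2 (large primase subunit) rose and PRI1 (small primase subunit) had a value of -0.22. POL1 ran from 39.7 to 52.3 CPM in YPD (median 47.1) and from 53.1 to 89.9 in 4NQO (median 64.0), and POL12 from 33.9 to 46.4 (median 42.9) and from 53.0 to 71.8 (median 57.2). Neither gene's libraries overlapped between the media. The log2 fold changes were 0.53 ± 0.13 for POL1 (adjusted p = 0.00132) and 0.48 ± 0.12 for POL12 (adjusted p = 0.00112). POL1 lost its call in the average of Yrr1S and Yrr1Y (0.33, adjusted p = 0.0999), whereas POL12 was called with Yrr1S (0.58 ± 0.20) and with Yrr1IE (0.57 ± 0.20), calls that were each lost in 3 of the 4 fits that left out 1 library.

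In polymerase epsilon, DPB2, an essential subunit that also contacts GINS, ran from 22.03 to 35.9 CPM in YPD (median 31.4) and from 41.1 to 54.9 in 4NQO (median 45.1), without overlap (log2 0.64 ± 0.14, adjusted p = 0.000523). DPB4 went the other way, with 24.4 to 41.9 CPM in YPD (median 36.2) and 18.5 to 34.8 in 4NQO (median 23.99), which overlapped (log2 -0.43 ± 0.16, adjusted p = 0.0317), and was called with Yrr1S alone (-0.78 ± 0.27). POL2 was called with Yrr1IE alone (0.49 ± 0.17). Both calls were lost whichever of their 4 libraries was left out.

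Of the helicase loading genes 0 of 7 rose and 3 fell. MCM2 ran from 47.7 to 69.8 CPM in YPD (median 63.4) and from 30.2 to 65.6 in 4NQO (median 49.0), MCM3 from 106.5 to 167 (median 143) and from 84.8 to 136 (median 123), and MCM4 from 90.02 to 144 (median 124) and from 87.7 to 106.5 (median 99.9). The libraries of the 2 media overlapped for each. The log2 fold changes were -0.37 ± 0.14, -0.27 ± 0.09 and -0.27 ± 0.09 (adjusted p = 0.0347, 0.0156 and 0.0143), and none of the 3 was called with libraries scaled to total counts. Without the Yrr1IE libraries MCM4 alone of the 3 was called (-0.45, adjusted p = 0.00122).

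Of the other genes called in 4NQO, CDC7, the kinase, had a log2 value of 0.58 ± 0.20 and PRI2 of 0.44 ± 0.14. ORC5, an ATP-binding ORC subunit, had 0.40 ± 0.11, CDC9, the ligase, 0.29 ± 0.10 and RFC3, a clamp loader subunit, 0.28 ± 0.12. CDC7, PRI2, CDC9, RFC3, DPB4 and MCM2 lost the call in 4 to 12 of the 12 fits that left out 1 library, and the other 10 of the 16 genes kept it in each such fit. CDC7 shares 163 bases with YDL016C, a locus with 1305 counts in all, which the unstranded libraries cannot separate.

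**Figure D2:**
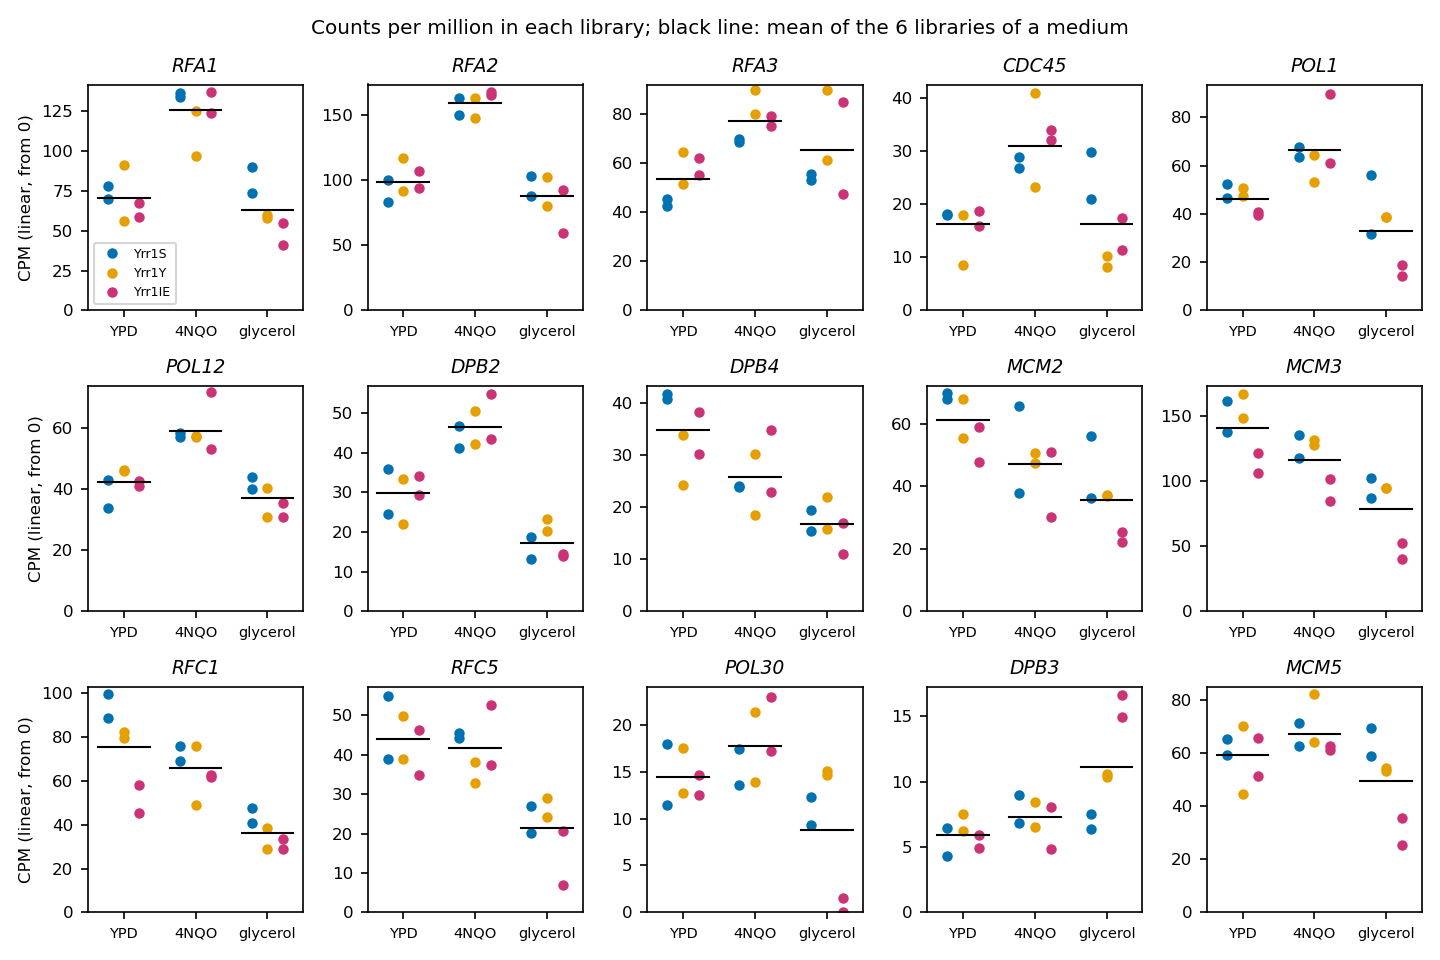
CPM of 15 replication genes in each library, on linear axes from 0, by medium and coloured by allele (2 libraries each), with the mean of 6 libraries as a black line. The 4NQO libraries of RFA1, RFA2, RFA3, CDC45, POL1, POL12 and DPB2 all lie above their YPD libraries. The share of all loci so separated was not counted. POL30 is at 0.0 and 1.54 CPM in the 2 Yrr1IE glycerol libraries.

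Set by the number of ACGCGT matches before the gene, the 6 genes with 2 matches (RFA1, RFA2, CDC45, POL1, POL12, RAD27) had a median log2 fold change of 0.61 in 4NQO, and 5 of them were called higher, all but RAD27 at 0.15. The 11 genes with 1 match had a median of 0.24 with 3 called higher, and the 27 with none a median of 0.01 with 4 called higher and 4 lower. Among the loci outside the 44 genes, the median was 0.61 for 16 loci with at least 2 matches (11 called higher, 0 lower), 0.20 for 172 with 1, and 0.03 for 5375 without a match (23.05% higher and 21.84% lower). Of those 16 loci 4 are on the list of 29 other replication genes, so they are not a set apart from replication. RFA3, CDC7, ORC5 and RFC3 were called higher with no match. In glycerol the medians of the loci outside the 44 genes were -0.195 with at least 2 matches, -0.16 with 1 and 0.04 without a match. Those of the 44 genes were -0.19 with 2 matches, -0.63 with 1 and -0.27 with none, so the order of 4NQO was not present among them. Without the Yrr1IE libraries the medians were 0.56, 0.14 and -0.13 in 4NQO and -0.11, -0.28 and -0.28 in glycerol, in the same order. These are descriptions of groups of genes, and their part in the changes was not tested.

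**Figure D3:**
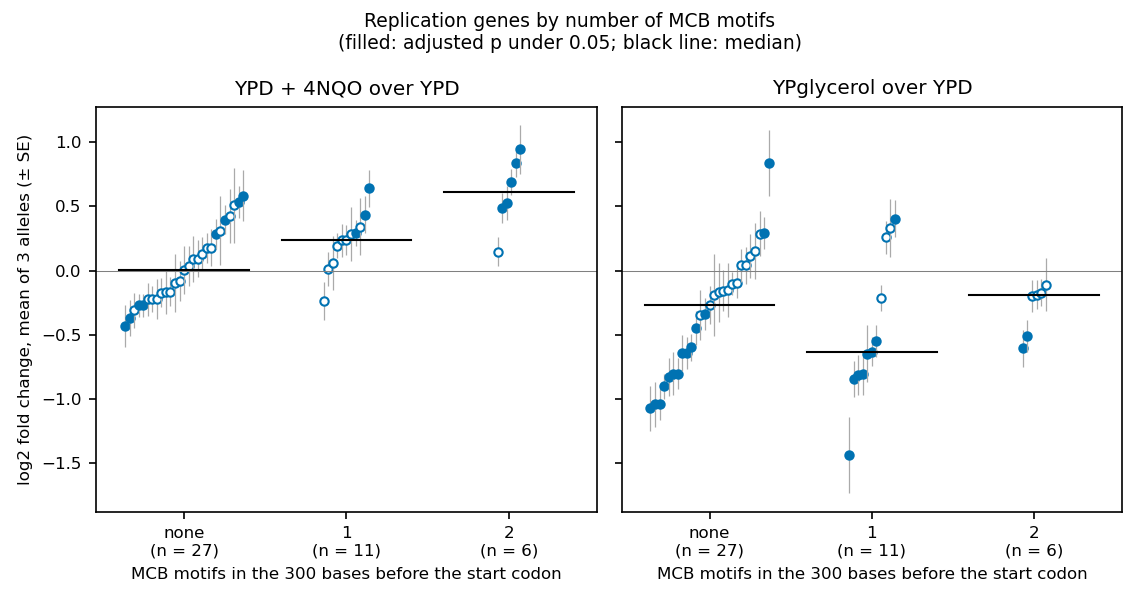
Log2 fold change over YPD, averaged over the 3 alleles, with its SE, for each replication gene, by the number of MCB motifs in the 300 bases before the start codon, in 4NQO (left) and glycerol (right). Filled points passed an adjusted p of 0.05 and black lines are medians, which in 4NQO are 0.01, 0.24 and 0.61 for 0, 1 and 2 motifs.

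Genes that work beside the replication machinery were counted from lists drawn up by function, with the 3 alleles averaged. The backgrounds in 4NQO were again 23.1% of all loci called higher and 21.1% lower. The 8 genes of nucleotide supply took 1746 to 2037 CPM in YPD and 8761 to 10261 in 4NQO, with 5 called higher and 1 lower, led by the ribonucleotide reductase genes RNR3 (log2 4.05 ± 0.14), RNR2 (2.74 ± 0.07) and RNR4 (2.70 ± 0.08), whose products make deoxynucleotides. Of the 29 other replication genes 8 were higher and 0 lower, among them TOP2 (0.83 ± 0.10), ASF1 (0.74 ± 0.20) and SLD2 (0.68 ± 0.22). Of the regulators of G1/S transcription NRM1, which encodes a repressor of MBF genes, rose (0.68 ± 0.17), as did STB1 (0.58 ± 0.15), and MBP1 fell (-0.49 ± 0.20).

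The position of the cells in the cycle was not measured, and lists of genes with peaks at other stages also moved in 4NQO. All 8 S phase histone genes fell, from a sum of 3623 to 4469 CPM in YPD to 2280 to 3105, with HTB2 at -1.07 ± 0.08 and HTA1 at -1.003 ± 0.08. Of the M/G1 cluster 7 of 8 fell and 1 rose, with a list median of -1.33, led by EGT2 (-2.19 ± 0.08) and CTS1 (-2.12 ± 0.07), and of the G2/M cluster 4 of 10 fell and 0 rose, led by HST3 (-0.93 ± 0.13). Of the late G1 cyclins and partners 3 rose, led by CLB6 (0.76 ± 0.25), and CLN1 (-0.40 ± 0.10) and CLN2 (-0.59 ± 0.10) fell. Markers of MATa cells summed to 3076 to 4646 CPM in YPD and 2488 to 3694 in 4NQO, with 5 of 6 lower, and of those of the other mating type STE3 was higher in 4NQO (1.54 ± 0.28). The part of a shift in cell cycle stages in the levels of the replication genes was not tested.

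The second comparison set glycerol against YPD. Many of the genes were lower in glycerol: POL30 and 4 of the 5 loader genes, 5 of the 6 Mcm genes and CDC6, ORC1, ORC2, DBF4, POL1, PRI1, POL3, DPB2, DPB4, RAD27 and CDC9 fell, and DPB3, PRI2 and RFA3 rose. With the alleles averaged 21 of 44 genes were called lower (background 36.5%) and 3 higher (background 38.8%), and 75.3% of all loci tested were called either way, against 24 of these 44. The median log2 fold change was -0.30, and that of all loci was 0.03. Without the Yrr1IE libraries 17 genes were lower and 2 higher, counts for which no share of all loci is given here. CDC6, MCM5, POL1, PRI1, POL3, POL30, DPB3 and RFA3 were then no longer called, while ORC5 (-0.39, adjusted p = 0.0143), MCM4 (-0.28, 0.0232) and CTF4 (0.35, 0.0457) were. Markers of MATa cells moved with the medium, from a sum of 3076 to 4646 CPM in YPD to 280 to 997 in glycerol, with 6 of 6 lower, and the markers of the other type summed to 59.4 to 91.1 and 96.04 to 174 CPM, with MF(ALPHA)1 under the filter on low counts. Their part in the result was not tested.

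By complex, the clamp and loader genes had the lowest median (-0.92, 5 of 6 lower), ahead of the helicase loading genes (-0.65, 6 of 7 lower), the Okazaki genes (-0.57, 2 of 2), polymerase epsilon (-0.51, 2 of 4 lower and 1 higher) and the kinase genes (-0.50, 1 of 2). The ORC genes (-0.22, ORC1 and ORC2 lower), RPA (-0.17, RFA3 higher) and the helicase activation genes (-0.11, none of 9 called) had values nearer to 0. Without the Yrr1IE libraries the medians were -0.45 for the clamp and loader genes (4 of 6 lower), -0.43 for the helicase loading genes (5 of 7), -0.47 for the Okazaki genes (2 of 2) and -0.38 for polymerase epsilon, so that the order of the complexes rests on Yrr1IE. At an unadjusted p under 0.05, 25 of the 44 genes passed in all, and DESeq2 called 23.

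RFC1, the large subunit of the clamp loader (chromosome XV, 749301 to 751886, plus strand), had 88.7 and 99.6 CPM in YPD with Yrr1S and 40.7 and 47.5 in glycerol. With Yrr1Y it had 82.3 and 79.8 CPM in YPD and 28.998 and 38.3 in glycerol, and with Yrr1IE 45.5 and 58.2 CPM in YPD and 33.3 and 28.8 in glycerol. Within each allele the media did not overlap, and the first Yrr1IE library in YPD lay below the second Yrr1S library in glycerol. The log2 fold change was -1.04 ± 0.12 (adjusted p = 7.52e-09), and each allele gave a call at -1.09 ± 0.20, -1.27 ± 0.21 and -0.75 ± 0.23 for Yrr1S, Yrr1Y and Yrr1IE. The call with Yrr1IE was lost without the second YPD library (-0.60, adjusted p = 0.0618). RFC1 shares 411 bases with the opposite-strand locus YOR218C, which had 4 counts in all.

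RFC5, a small loader subunit (chromosome II, 423765 to 424829, plus strand), had 38.9 and 54.9 CPM in YPD with Yrr1S, 38.8 and 49.8 with Yrr1Y, and 34.8 and 46.3 with Yrr1IE. In glycerol it had 20.1 and 27.1 CPM with Yrr1S, 28.998 and 24.1 with Yrr1Y, and 6.94 and 20.6 with Yrr1IE, all below every YPD library. The share of all loci so separated in glycerol was not counted, for this gene or those below. The log2 fold change was -1.07 ± 0.17 (adjusted p = 2.1e-06), and it was called with each allele (-0.997 ± 0.28, -0.74 ± 0.29 and -1.49 ± 0.32). The call with Yrr1S was lost without the second YPD library (adjusted p = 0.0503) or the first glycerol library (adjusted p = 0.0546), and that with Yrr1Y without the second library of either medium (adjusted p = 0.143 and 0.099).

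MCM3, a subunit of the helicase ring (chromosome V, 86937 to 89852, plus strand), had 162 and 138 CPM in YPD with Yrr1S, 149.0 and 167 with Yrr1Y, and 106.5 and 122 with Yrr1IE. In glycerol it had 103 and 87.4 CPM with Yrr1S, 95.2 and 94.7 with Yrr1Y, and 52.7 and 40.2 with Yrr1IE. No glycerol library reached the lowest YPD library. The log2 fold change was -0.90 ± 0.10 (adjusted p = 9.6e-10), and each allele was called (-0.65 ± 0.16, -0.74 ± 0.16 and -1.31 ± 0.18).

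MCM2, another subunit of the ring (chromosome II, 174920 to 177526, minus strand), had 69.8 and 67.96 CPM in YPD with Yrr1S, 67.8 and 55.4 with Yrr1Y, and 47.7 and 59.0 with Yrr1IE. In glycerol it had 36.1 and 55.9 CPM with Yrr1S, 36.8 and 37.0 with Yrr1Y, and 22.2 and 25.2 with Yrr1IE. The second Yrr1S glycerol library overlapped with YPD. The log2 fold change was -0.83 ± 0.15 (adjusted p = 1.28e-05) and by allele -0.58 ± 0.24, -0.74 ± 0.25 and -1.16 ± 0.28, each called. The call with Yrr1S was lost without either YPD library (adjusted p = 0.0537 and 0.0513) or the first glycerol library (-0.30, adjusted p = 0.387), in DESeq2 (adjusted p = 0.0661) and with total counts (adjusted p = 0.172), and that with Yrr1Y without the first YPD library (adjusted p = 0.073). MCM2, MCM3, RFC1 and RFC5 were the 4 of 27 genes called lower with any allele that were called with each of the 3. Of all loci 19.3% were called lower with each allele and 40.8% with any.

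DPB4 (chromosome IV, 693585 to 694175, plus strand) had 40.9 and 41.9 CPM in YPD and 15.6 and 19.5 in glycerol with Yrr1S, 24.4 and 33.9 and then 15.9 and 21.96 with Yrr1Y, and 30.3 and 38.4 and then 11.1 and 16.99 with Yrr1IE. All glycerol libraries lay below all YPD libraries (log2 -1.04 ± 0.17, adjusted p = 4.08e-06), and it was called with Yrr1S (-1.23 ± 0.29) and Yrr1IE (-1.26 ± 0.31). DBF4, the regulatory partner of the kinase, ran from 40.1 to 50.3 CPM in YPD (median 47.1) and from 15.4 to 33.6 in glycerol (median 27.8), also without overlap (-0.84 ± 0.14). CDC7, its catalytic partner, had a value of -0.15.

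DPB3, in contrast, had 6.48 and 4.35 CPM in YPD with Yrr1S, 7.54 and 6.22 with Yrr1Y, and 4.90 and 5.94 with Yrr1IE, and in glycerol 6.403 and 7.54, 10.6 and 10.3, and 16.7 and 14.9. The Yrr1IE glycerol libraries were the highest of all and those of Yrr1S overlapped with YPD. The rise was 1.79-fold on average (log2 0.84 ± 0.26, adjusted p = 0.00449), was called by allele with Yrr1IE alone (1.52 ± 0.43, adjusted p = 0.00268), and was not called in the average of Yrr1S and Yrr1Y (0.49, adjusted p = 0.173). PRI2 ran from 25.5 to 35.4 CPM in YPD (median 28.7) and from 21.5 to 48.5 in glycerol (median 41.7, log2 0.40 ± 0.14, adjusted p = 0.013), and RFA3 from 42.7 to 64.5 and from 47.2 to 89.6 (log2 0.29 ± 0.12, adjusted p = 0.035). Leaving out 1 library ended the call of RFA3 in 9 of 12 cases and that of PRI2 in 7 of 12.

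**Figure D4:**
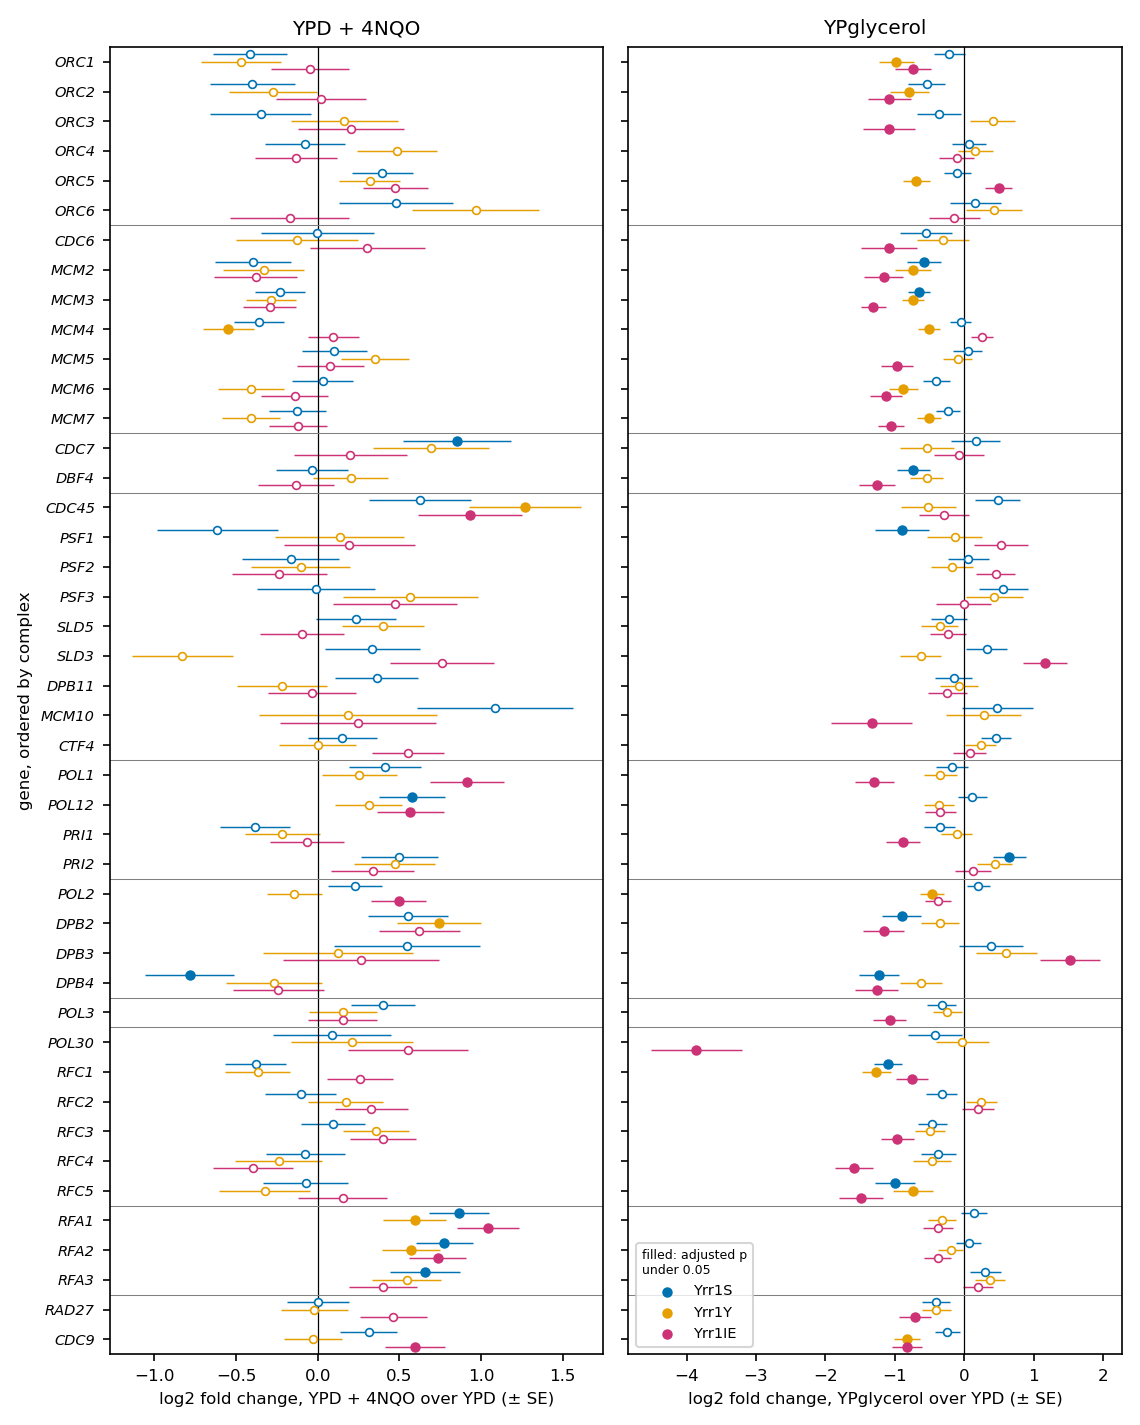
Log2 fold change over YPD with its SE for 44 replication genes in order of complex, in 4NQO (left) and glycerol (right), for Yrr1S, Yrr1Y and Yrr1IE, with filled points at an adjusted p under 0.05. RFA1 and RFA2 are filled for each allele in 4NQO, and in glycerol the Yrr1IE points lie furthest to the left for 29 of the 44 genes, with POL30 at a fitted value of -3.86 from 3 counts.

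POL30, the gene of the clamp PCNA (chromosome II, 424990 to 425766, minus strand), had the lowest fitted value in glycerol, and this came from 1 allele. It had 17.9 and 11.5 CPM in YPD with Yrr1S, 12.8 and 17.5 with Yrr1Y, and 12.5 and 14.7 with Yrr1IE, and in glycerol 12.3 and 9.32 with Yrr1S, 15.1 and 14.6 with Yrr1Y, and 0.0 and 1.54 with Yrr1IE. The last pair holds 0 and 3 counts, against 65 counts in the Yrr1IE libraries in YPD, a ratio of 0.0651 (95% exact binomial interval 0.0131 to 0.199, counting error only). Both mates of a read pair could add a count, so such intervals are too narrow. Against Yrr1S in glycerol, with 48 counts, the ratio was 0.082 (0.0163 to 0.2545), and against Yrr1Y, with 71 counts, 0.0596 (0.012 to 0.181). The fall was called with Yrr1IE (adjusted p = 6.64e-06), and the average of Yrr1S and Yrr1Y gave -0.22 (adjusted p = 0.472). Its counts were low throughout (0 to 46 a library), and 584 of its 777 bases lie within the opposite-strand locus YBR089W, which had 10 counts in all. Whether reads in the shared bases were counted is not given in the sources used here.

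The third comparison set the alleles against each other within a medium. In 4NQO none of the 44 genes differed between any 2 alleles in edgeR's test. An unadjusted p under 0.05 was reached by 4 genes for Yrr1Y over Yrr1S, 2 for Yrr1IE over Yrr1S and 2 for Yrr1IE over Yrr1Y, and DESeq2 called 0 in each, which gave no adjusted p for 38 of the 44 genes in the first. Of all loci 0.0520%, 4.51% and 4.06% were called in these comparisons. In YPD Yrr1Y and Yrr1S differed at 0 of the 44 genes (background 0.884%, 1 gene at an unadjusted p under 0.05, 0 by DESeq2, which gave no adjusted p for 16 genes).

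Yrr1IE in YPD was lower than Yrr1S at RFC1 (background 4.41% lower), at 45.5 and 58.2 CPM against 88.7 and 99.6 (log2 -0.86 ± 0.19, adjusted p = 0.00234), a call lost without the first Yrr1IE library (-0.69, adjusted p = 0.0825). Against Yrr1Y 6 genes were lower with Yrr1IE (background 6.73%). SLD3, which recruits Cdc45 to origins, had 10.2 and 13.5 CPM against 27.8 and 21.5 (-1.05 ± 0.31), and CDC9 51.7 and 45.5 against 76.0 and 79.8 (-0.68 ± 0.18). RFC1 had 82.3 and 79.8 CPM with Yrr1Y (-0.64 ± 0.20). ORC5 had 46.3 and 51.5 against 78.3 and 69.004 (-0.59 ± 0.20), MCM4 90.02 and 104.5 against 139 and 144 (-0.53 ± 0.15), and MCM3 106.5 and 122 against 149.0 and 167 (-0.47 ± 0.16). The pairs did not overlap, yet every 1 of the 6 calls (adjusted p from 0.011 to 0.0432) was lost when some 1 library was left out, and between 0 and 2 genes were then called.

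In glycerol Yrr1Y differed from Yrr1S at 2 of the 44 genes, both lower (background 0.763%). CDC45 had 10.2 and 8.18 CPM with Yrr1Y and 29.7 and 20.9 with Yrr1S (log2 -1.45 ± 0.35, adjusted p = 0.0148), and ORC1, the largest ORC subunit and an ATPase, 22.9 and 15.9 against 43.9 and 37.7 (-1.07 ± 0.25, adjusted p = 0.0107). Both pairs were apart, and each call was lost without 1 library at least.

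Yrr1IE in glycerol had the largest number of called genes against the other alleles. Against Yrr1S 22 of 44 genes were lower (background 27.6%) and 2 higher (background 20.7%). Against Yrr1Y 12 were lower (background 26.1%), a share near that of all loci, and 3 higher (background 17.1%). The 44 genes together took 1308 and 1336 CPM in the Yrr1IE libraries, 1841 and 1855 in those of Yrr1S, and 1585 and 1694 in those of Yrr1Y. Within Yrr1IE, 23 genes were lower in glycerol than in YPD (background 32.3%) and 3 higher (background 33.2%), with a median log2 value of -0.72, whereas Yrr1S had 8 lower and 1 higher (background 28.6% and 29.1%, median -0.22) and Yrr1Y 12 lower and 0 higher (background 27.0% and 28.5%, median -0.35). For Yrr1S, scaling to total counts gave 5 lower and 3 higher, with no share of all loci given here for that scaling. Of the calls in Yrr1IE against Yrr1S 16 of 24, and against Yrr1Y 10 of 15, were lost when some 1 library was left out, with 16 to 21 and 8 to 11 genes then called.

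In the helicase ring, MCM5 had 69.5 and 59.0 CPM in glycerol with Yrr1S, 54.3 and 53.4 with Yrr1Y, and 35.4 and 25.2 with Yrr1IE. The Yrr1IE libraries lay below all others, by log2 values of -1.10 ± 0.23 against Yrr1S (adjusted p = 0.000229) and -0.85 ± 0.23 against Yrr1Y (adjusted p = 0.00382). MCM7 had 88.7 and 98.1, 83.7 and 99.9, and 49.97 and 52.0 CPM in the same order (-0.87 ± 0.20 and -0.84 ± 0.20). MCM3, given above, was also lower by both tests (-1.05 ± 0.18 each), and MCM2 (-0.95 ± 0.28) and MCM6 (-1.07 ± 0.23) were lower against Yrr1S, MCM6 having 69.5 and 58.6 CPM with Yrr1S, 36.3 and 50.8 with Yrr1Y, and 34.7 and 26.8 with Yrr1IE. MCM4 did not follow: it had 111 and 128 CPM with Yrr1S, 104.6 and 93.9 with Yrr1Y, and 103 and 128 with Yrr1IE, and its glycerol response was higher with Yrr1IE than with Yrr1Y by 0.76 ± 0.22 (adjusted p = 0.00779).

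Among polymerase genes, POL1 had 56.3 and 31.5 CPM in glycerol with Yrr1S, 38.8 and 38.8 with Yrr1Y, and 18.7 and 14.4 with Yrr1IE. It was lower with Yrr1IE (log2 -1.42 ± 0.28 and -1.24 ± 0.28, adjusted p = 0.000116 and 0.00064), again with no overlap. POL3, the catalytic subunit of polymerase delta, had 47.1 and 35.1, 40.8 and 40.5, and 24.3 and 20.6 CPM (-0.88 ± 0.24 and -0.87 ± 0.24), and PRI1 had 40.2 and 37.7, 35.5 and 40.5, and 22.2 and 23.2 (-0.78 ± 0.25 and -0.74 ± 0.25). POL2, with 91.9 and 124, 73.9 and 74.9, and 63.8 and 52.0 CPM, was lower against Yrr1S (-0.91 ± 0.18), as was PRI2, with 48.5 and 47.9 against 21.5 and 36.6 (-0.70 ± 0.25). DPB3 was higher with Yrr1IE than with Yrr1S (1.17 ± 0.42, adjusted p = 0.0221).

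At origins, ORC3 had 19.7 and 15.5 CPM in glycerol with Yrr1S, 23.3 and 26.3 with Yrr1Y, and 13.9 and 4.63 with Yrr1IE (-1.0003 ± 0.38 and -1.49 ± 0.36). The second Yrr1IE library (9 counts) was far below the first, and without it the values were -0.27 and -0.75 (adjusted p = 0.637 and 0.141). ORC1 (21.5 and 22.7 CPM with Yrr1IE, -0.88 ± 0.26) and ORC2 (35.2 and 29.3 CPM with Yrr1S, 12.5 and 20.6 with Yrr1IE, -0.93 ± 0.32) were lower against Yrr1S. ORC5 was higher with Yrr1IE than with Yrr1Y, with 36.8 and 54.7 CPM with Yrr1Y and 78.4 and 60.7 with Yrr1IE (0.60 ± 0.20, adjusted p = 0.0168). ORC4 and ORC6 were not called. DBF4 had 27.9 and 32.0 CPM with Yrr1S, 27.8 and 33.6 with Yrr1Y, and 22.2 and 15.4 with Yrr1IE (-0.69 ± 0.28 and -0.73 ± 0.27).

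Among helicase activation genes, PSF2, a GINS subunit, was higher with Yrr1IE at 41.6 and 40.2 CPM, against 27.0 and 19.5 with Yrr1S and 22.1 and 21.96 with Yrr1Y (0.81 ± 0.29 and 0.89 ± 0.29). SLD3 had 29.1 and 24.7 CPM with Yrr1IE and 16.7 and 15.1 with Yrr1Y (0.75 ± 0.30, adjusted p = 0.0444), against 10.2 and 13.5 with Yrr1IE and 27.8 and 21.5 with Yrr1Y in YPD, the opposite order. CDC45 had 17.4 and 11.3 CPM with Yrr1IE, below Yrr1S (-0.84 ± 0.35, adjusted p = 0.0464), and CTF4, which ties polymerase alpha to the helicase, 49.3 and 34.0 against 66.3 and 69.7 (-0.73 ± 0.22). PSF1 had 8.23 and 19.5 CPM with Yrr1S and 15.3 and 30.4 with Yrr1IE, which overlapped.

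Among the other lagging-strand genes, CDC9 had 58.1 and 54.6 CPM in glycerol with Yrr1S, 42.1 and 45.6 with Yrr1Y, and 31.9 and 23.7 with Yrr1IE (-1.04 ± 0.21 and -0.68 ± 0.21). RAD27, the flap nuclease, had 45.3 and 37.7, 39.2 and 32.3, and 18.7 and 26.8 CPM (-0.84 ± 0.23 and -0.63 ± 0.23). For both genes the Yrr1IE libraries lay below all others. RFC4 (21.0 and 31.5 CPM with Yrr1S, 11.8 and 16.5 with Yrr1IE, -0.87 ± 0.30), RFC3 (34.8 and 41.3 against 24.3 and 19.6, -0.81 ± 0.24) and RFA1 (73.6 and 90.1 against 40.9 and 55.1, -0.75 ± 0.21) were lower against Yrr1S, and RFC5 against Yrr1Y (-0.87 ± 0.34). ORC4, ORC6, PSF3, SLD5, DPB11 and RFC2 were called in none of the 23 comparisons.

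The test of the difference between alleles in their response to a medium found few genes in 4NQO. SLD3 had 27.8 and 21.5 CPM in YPD and 10.7 and 16.9 in 4NQO with Yrr1Y, and 10.2 and 13.5 CPM in YPD and 22.7 and 17.5 in 4NQO with Yrr1IE. The 2 alleles moved in opposite directions without overlap between the media, and their responses differed by 1.59 ± 0.44 on the log2 scale (adjusted p = 0.0267, 1 of 44 genes called higher, background 2.72%). The call was lost when some 1 library was left out, and DESeq2, which gave no adjusted p for 10 of the 44 genes, called 0. For Yrr1Y against Yrr1S and Yrr1IE against Yrr1S the responses to 4NQO differed at 0 genes in edgeR (background 0.867% and 5.06%, 1 and 2 genes at an unadjusted p under 0.05, 0 by DESeq2, with no adjusted p for 16 and 2 genes).

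In glycerol the response of Yrr1IE differed from that of Yrr1S at 7 of 44 genes (background 31.4%), 6 more negative (background 19.4%) and 1, PSF1, more positive (1.43 ± 0.55). Against Yrr1Y 6 were more negative (background 20.9%) and 3, ORC5, SLD3 and MCM4, more positive (background 11.8%). POL30, POL1, MCM5 and RFC4 were more negative in both. RFC4 had 45.9 and 40.8 CPM in YPD and 11.8 and 16.5 in glycerol with Yrr1IE, 27.9 and 39.9 and then 21.0 and 31.5 with Yrr1S, and 28.4 and 28.9 and then 21.2 and 20.2 with Yrr1Y. Its Yrr1IE libraries were the highest in YPD and the lowest in glycerol (differences of -1.21 ± 0.38 and -1.12 ± 0.39, adjusted p = 0.0153 and 0.0276). ORC5 went from 78.3 and 69.004 CPM in YPD to 36.8 and 54.7 in glycerol with Yrr1Y, and from 46.3 and 51.5 to 78.4 and 60.7 with Yrr1IE (1.184 ± 0.28, adjusted p = 0.00147). Of these calls 6 of 7 against Yrr1S and 5 of 9 against Yrr1Y were lost when some 1 library was left out. Yrr1Y and Yrr1S differed in the glycerol response at 0 genes (background 0.624%, 6 at an unadjusted p under 0.05, 0 by DESeq2, which gave no adjusted p for 32 genes).

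Other gene groups differed in the same Yrr1IE glycerol libraries. Nucleotide supply genes summed to 633 and 725 CPM with Yrr1IE, 2325 and 2519 with Yrr1S, and 2516 and 2602 with Yrr1Y. The S phase histone genes summed to 1119 and 1498, 2663 and 2873, and 3122 and 3552 CPM, and the late G1 cyclins and partners to 133 and 153, 329.8 and 379, and 305.5 and 355. The MATa markers were higher with Yrr1IE (836 and 997 CPM) than with Yrr1S (280 and 299) and Yrr1Y (310 and 333). The part of these groups in the levels of the replication genes was not tested.

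**Figure D5:**
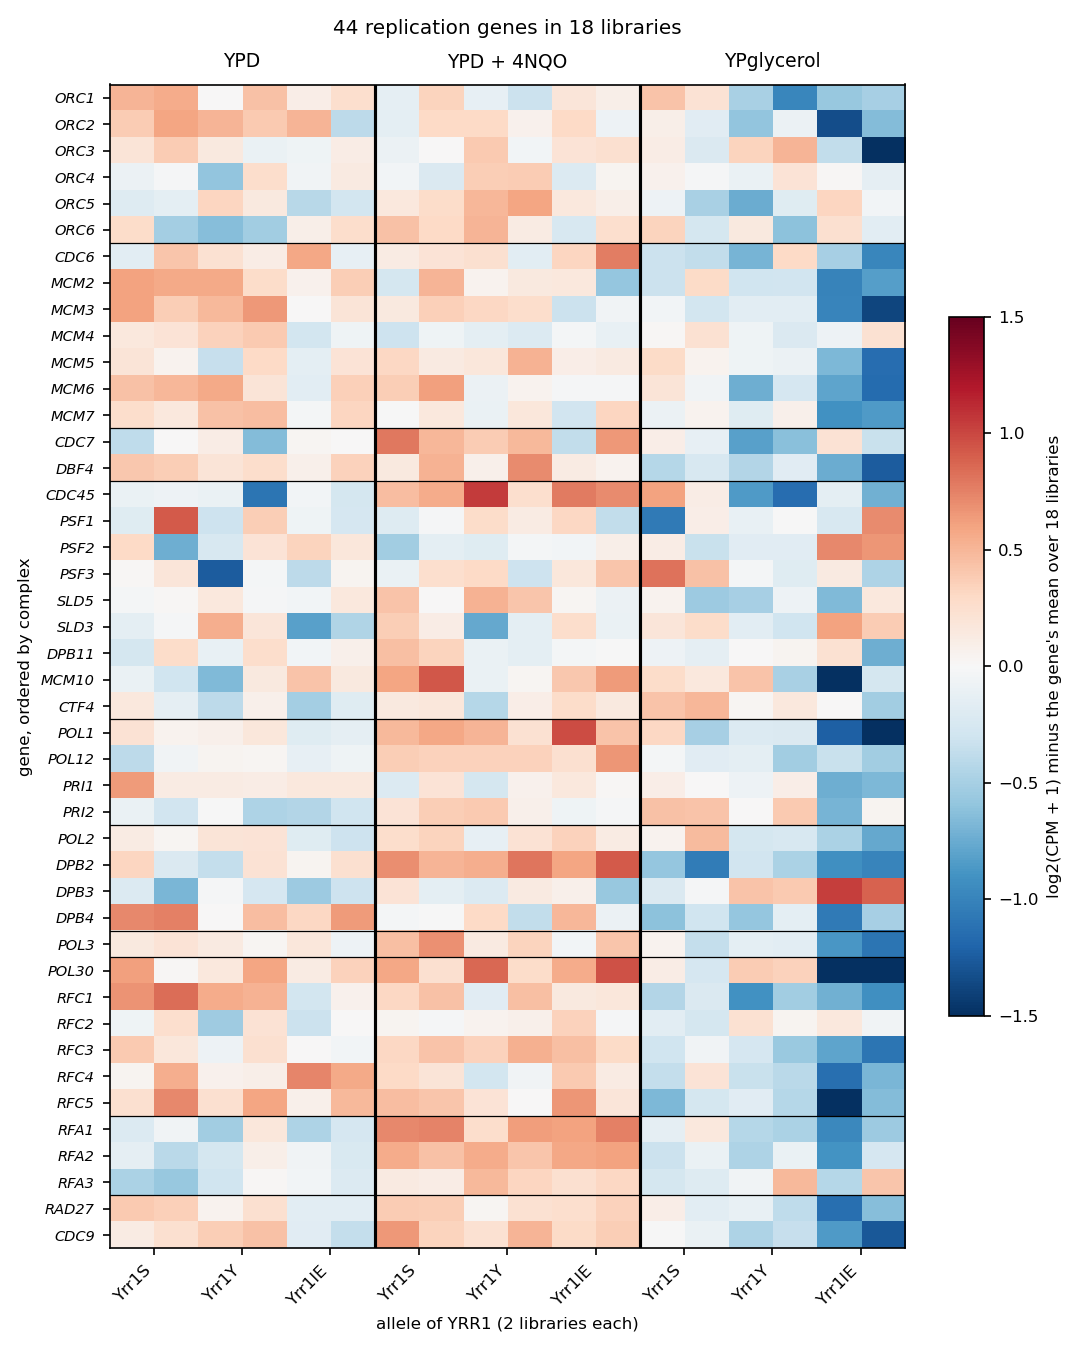
Log2(CPM + 1) of the 44 replication genes in each of 18 libraries, minus the mean of the gene over all libraries, in order of complex, by medium and allele (2 libraries each). The RPA rows at the lower end are red in all 6 libraries with 4NQO, and the 2 Yrr1IE glycerol columns on the right hold most of the dark blue cells.

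In glycerol at large, with the 3 alleles averaged, 36.5% of all loci were called lower and 38.8% higher. Of the 29 other replication genes 10 were lower, a share near that of all loci, and 3 higher. The falls were led by POL32 (-1.07 ± 0.23), RTT109 (-0.79 ± 0.18) and TOP1 (-0.70 ± 0.18). Of nucleotide supply genes RNR3 was higher (2.19 ± 0.15) and RNR1 (-1.36 ± 0.08) and DUT1 (-1.22 ± 0.14) lower. All 8 histone genes (HTB2 -1.93 ± 0.08, HTA2 -1.85 ± 0.11) and 8 of 10 genes of the G2/M cluster (CLB2 -2.28 ± 0.14, MYO1 -1.86 ± 0.18) were lower. Among the G1/S regulators SWI6 (-1.01 ± 0.16) and NRM1 (-1.42 ± 0.22) were lower and YOX1 was higher (1.12 ± 0.11). By allele, 5 of the 8 histone genes were lower with Yrr1S, 2 with Yrr1Y and 8 with Yrr1IE, at list medians of -0.50, -0.19 and -1.66. For the G2/M cluster 6, 8 and 8 of 10 genes were lower in the same order. Nucleotide supply had list medians of 0.29 with Yrr1S, 0.05 with Yrr1Y and -1.32 with Yrr1IE. Of the 6 late G1 cyclins and partners CLN2 alone was called in the average, lower (-0.85 ± 0.10). By allele 1 was lower and 2 higher with Yrr1S, 0 and 1 with Yrr1Y, and 4 and 0 with Yrr1IE. Fewer cells at a stage and less RNA per cell cannot be told apart in these bulk libraries.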

How the data were processed

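Total RNA of 18 libraries (paired-end, unstranded TruSeq v2 kit, MiSeq) was sequenced, and groups were taken from the sample titles and the allele labels. According to the methods and processing notes the authors called bases with CASAVA 1.7, aligned reads to R64 with TopHat 2.0.12, set aside rRNA and tRNA reads and counted reads per gene with Rsubread. The deposited counts are whole numbers per locus, not normalized, and the authors also deposited FPKM, which could be recomputed from the counts and lengths for 100.0% of values (within 0.1 FPKM plus 0.2%). The largest totals exceed the number of read pairs that the methods give, so mates of a pair were counted separately in at least some libraries, and counts are not independent molecules. A deposited table of the authors' DESeq2 1.8.1 comparisons, with mean scores, log2 fold changes and p-values, was not used.

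Counts were tested with edgeR 4.0.16 (R 4.3.3, limma 3.58.1; TMM factors 0.896 to 1.12, filterByExpr over 9 conditions, 5766 of 6713 loci kept, quasi-likelihood fit of all 18 libraries, common dispersion 0.0122). Contrasts were averages over alleles, single alleles, alleles within a medium and differences of responses, 23 in all, each two-sided, with Benjamini-Hochberg adjustment over all loci tested within a comparison and a threshold of 0.05. The errors given after ± are standard errors of log2 fold changes, each of which used a prior count of 0.125. CPM are counts per 1000000 of TMM-scaled totals. Total counts of 1475372 to 2826771 per library limit the precision of genes with few counts, and intervals cover counting error only. Alternatives were DESeq2 1.42.0, its size factors in edgeR, total counts, no filter, only the libraries compared and each of the 18 libraries left out in turn. The average of Yrr1S and Yrr1Y alone, given above as without the Yrr1IE libraries, was added after seeing the data. It was a contrast in the fit of all 18 libraries, so the filter, scaling and dispersion used the Yrr1IE libraries too. The test code was checked on simulated data. Tables and figures were made with Python 3.11.15, pandas 2.3.3, numpy 2.4.6 and matplotlib 3.10.9. Genes given in full were those called in a medium with every allele, the 3 with the largest rise and fall in each average, and those called between alleles, and the others are given by complex. The genes and lists were chosen with earlier results of these data known.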

Additional observations from a re-analysis of the deposited data

Results flagged for a closer look

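Tests of the difference in response between 2 alleles called the following replication genes, each given by the log2 difference of responses in edgeR. They were 1 of 44 genes for Yrr1IE against Yrr1Y in 4NQO (background 2.72% called higher). In glycerol they were 7 against Yrr1S (background 31.4% called either way) and 9 against Yrr1Y (background 20.9% called lower and 11.8% higher). Many of these calls were lost when some 1 library was left out, as given above. In 4NQO the response of SLD3 was more positive with Yrr1IE than with Yrr1Y by 1.59. In glycerol the responses with Yrr1IE differed from those with Yrr1S by -3.44 for POL30, -0.82 for MCM7, -0.66 for MCM3, -1.02 for MCM5, -1.13 for POL1, -1.21 for RFC4 and 1.43 for PSF1. Those with Yrr1IE differed from those with Yrr1Y by -3.835 for POL30, -0.83 for POL3, -1.49 for ORC3, -0.88 for MCM5, -0.95 for POL1, -1.12 for RFC4, 1.79 for SLD3, 1.184 for ORC5 and 0.76 for MCM4. The values of POL30 rest on 0 and 3 counts and depend on the prior count. The Yrr1IE allele, the lower YRR1 counts and the near absence of SNF1 counts in the same libraries cannot be told apart.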

How the results depend on the processing

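No replication gene named here changed the sign of a called value under any alternative. No paired analysis was possible because the groups share no library numbers and no label tells which libraries come from 1 culture. Counts of called replication genes moved by more than 1.5 times as follows, with no share of all loci given here for these settings. With total counts in place of TMM, 12 were called in 4NQO with Yrr1S, 14 with Yrr1IE, and 2 for the difference in 4NQO response between Yrr1IE and Yrr1Y. With DESeq2 these were 3 in 4NQO with Yrr1Y, 4 with Yrr1IE, 0 for the 4NQO difference between Yrr1IE and Yrr1Y, and 5 for their glycerol difference. With only the libraries compared, the 4NQO difference between Yrr1IE and Yrr1Y was called for 2 genes.

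With each library left out in turn, the genes called numbered 11 to 17 in 4NQO averaged over alleles, 2 to 4 with each of Yrr1S, Yrr1Y and Yrr1IE, and in glycerol 24 to 28 on average, 5 to 9 with Yrr1S, 13 to 14 with Yrr1Y and 21 to 27 with Yrr1IE. Between alleles they numbered 0 to 1 for Yrr1IE over Yrr1S and 0 to 2 for Yrr1IE over Yrr1Y in YPD, and in glycerol 0 to 2 for Yrr1Y over Yrr1S, 16 to 21 for Yrr1IE over Yrr1S and 8 to 11 for Yrr1IE over Yrr1Y. For differences of response they numbered 0 to 1 in 4NQO (Yrr1IE against Yrr1Y), and in glycerol 2 to 9 (Yrr1IE against Yrr1S) and 4 to 8 (Yrr1IE against Yrr1Y). Causes of these shifts were not tested, except that a fit without a library has 1 sample in a condition, which is assumed to vary like the others. With 2 libraries a condition, genes at few counts, such as MCM10, POL30 and ORC3, were measured with limited precision.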
